A study of Homo sapiens with 21 samples.

Results

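Nuclear pore complexes are the channels through which RNA and protein pass between nucleus and cytoplasm, and karyopherins are the receptors that carry cargo through them. The genes described here were taken by a rule on names that uses no measured value, though it was set with earlier results of these data known. They are the protein-coding rows of the count table whose symbols begin with NUP and a number, together with TPR, NDC1, POM121, SEH1L and RANBP2, and the importins, transportins and exportins of the KPNA, KPNB, IPO, TNPO and XPO families. The rule found 52 genes, 28 nuclear pore proteins and 24 karyopherins, of 19988 protein-coding genes and 61544 genes in all.

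The measurements come from poly(A) RNA sequencing of BJ, a skin fibroblast line of human origin that stops dividing after a limited number of passages. Untreated cells were sampled at 5 passages (P3, P11, P24, P30, P33), and further P11 cells were given 50 ng/ml DOX, which the series title calls doxorubicin, a drug that damages DNA, or DMSO, its control. Each of the 7 groups had 3 libraries. Neither the length of treatment nor whether replicates were separate cultures is stated in the sources, so the p-values reflect the spread between libraries, which may be technical. According to its title, the series asks which changes are shared by senescence after many passages and senescence after doxorubicin.

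A pore is built from stacked rings. The Y complex forms the outer scaffold and the inner ring the middle one, membrane proteins anchor them, and flexible proteins rich in phenylalanine and glycine fill the channel. Filaments reach into the cytoplasm, and a basket hangs into the nucleus. Importin alpha (KPNA) adaptors bind a nuclear localisation signal and are carried in by importin beta (KPNB1), other import receptors bind their cargo directly, and exportins leave the nucleus together with cargo and the small GTPase Ran.

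Totals ran from 12.95 to 27.19 M counts per library. Levels are CPM, counts scaled to TMM-corrected library sizes, which are not corrected for gene length, so levels are compared between libraries and not between genes. Of the 52 genes, 48 passed the count filter, 26 pore proteins and 22 karyopherins, and were tested with edgeR's quasi-likelihood test, adjusted by Benjamini-Hochberg over 16821 genes. A gene is said to be higher or lower at an adjusted p under 0.05. IPO4, KPNA7, NUP210L and NUP62CL did not pass, with 0 to 10 counts per library. IPO4 and, among the tested members, IPO11 overlap other genes of their strand over 98.0% and 60.5% of their spans. Low counts of these 2 genes therefore need not mean low levels. The 8 fibroblast markers had reads in every group and summed to between 12100 and 37700 CPM per library, and markers of keratinocytes, endothelium, leukocytes and melanocytes to at most 2.36 CPM for any of these types. In bulk RNA, fewer cells of one state and less RNA per cell cannot be told apart. The passage libraries and the DOX and DMSO libraries were not counted alike: of 9429 genes that a longer gene of the same strand contains, 0 had reads in the passage libraries and 3950 had reads in the others. NUP62, whose whole span on chromosome 19 (49906825 to 49929763, hg38) is covered by IL4I1 and a further gene on the same strand, is the member this touches most. It had 0 reads in all 15 passage libraries, so 47 members remain for passage comparisons. Levels are therefore not compared between the passage libraries and the DOX or DMSO libraries, other than to point at genes that the counting may touch.

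**Figure D1:**
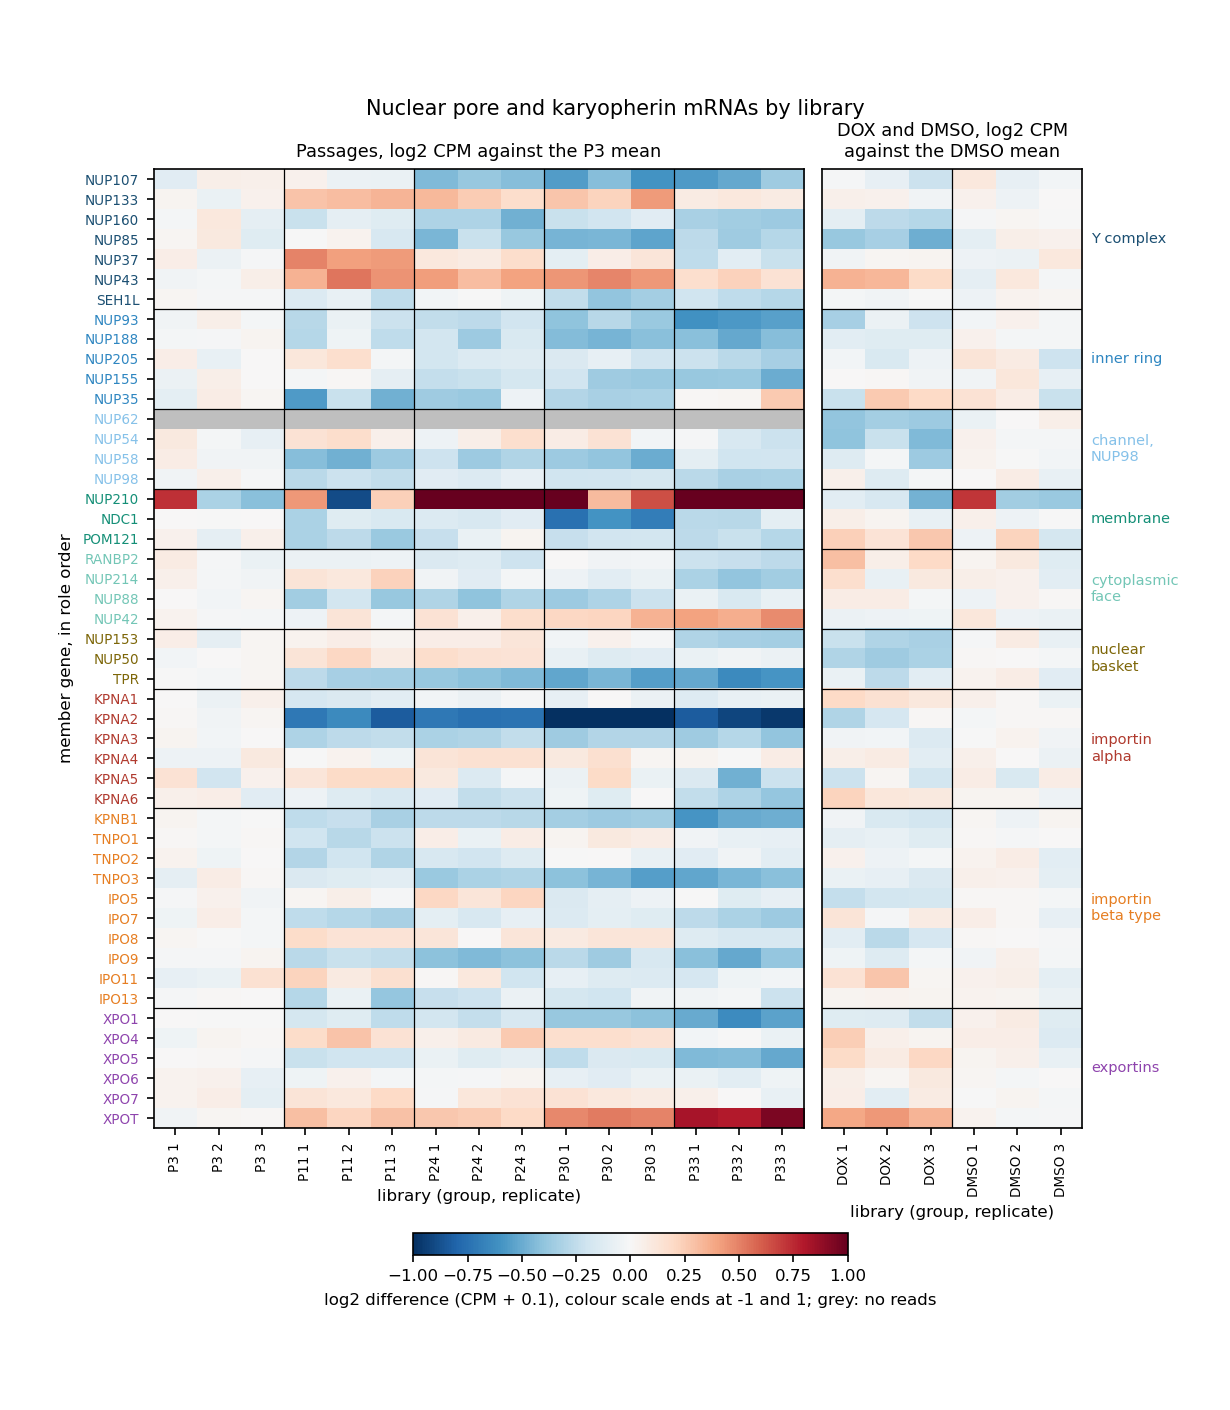
Level of each tested member in each library, as the log2 of CPM plus 0.1 relative to the member's mean at P3 (passage libraries, left block) or with DMSO (DOX and DMSO libraries, right block), in role order; colour runs from -1 (blue) to 1 (red), and grey marks NUP62, without reads in the passage libraries. Blue gathers in the P33 columns, where 22 of 47 members had their lowest mean, a count not made over all genes.

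With TMM scaling, most members tested were called lower at P33 than at P3, by modest amounts. That majority depended on the scaling and the count filter. At P33 against P3, 28 members were lower and 4 higher, while of all genes tested 33.3% were lower and 34.5% higher. The 28 make 58.3% of the 48 members tested. The median log2 fold change of the 47 members with reads was -0.24, against 0 over all 16821 genes. The latter include genes without passage reads, such as NUP62. Fitted apart from the drug libraries, the passage libraries gave a median of 0.03 over 15642 genes. How much of the members' shift is shared by genes of like level was not tested. Of the lower members 21 differed by at least 1.2-fold and 1, KPNA2, by at least 1.5-fold; of the higher ones 3 and 2. In 32 of 47 members, or 68.1%, all 3 P33 libraries lay below all 3 P3 libraries, a pattern found in 34.9% of all genes; in 5 members (NUP133, NUP210, NUP42, NUP43 and XPOT) they all lay above, against 36.0% of all genes. Pore proteins were 17 lower and 3 higher of 26, and karyopherins 11 lower and 1 higher of 22. Under upper-quartile scaling, which moved the median of all genes by 0.118 at P33 against P3, the split was 19 lower and 6 higher. With a filter of 10 CPM on the mean it was 18 lower and 6 higher. Scaling was recomputed after this filter: the median of the 8950 genes kept was 0.0108, and XPO7 moved to 0.1361. The shares of all genes called were not counted under these settings. The calls of IPO8, KPNA5, NDC1, NUP37, NUP58, NUP205, POM121, RANBP2 and SEH1L were lost under both settings, and those of KPNA5, NUP37 and NUP58 also with DESeq2 and without P3 replicate 1.

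With TMM scaling, members were more often lower than higher from P11 on. At P11 against P3, 21 members were lower and 9 higher (all genes 23.6% and 22.9%). At P24 they were 18 and 7 (all genes 27.8% and 26.6%), and at P30 22 and 5 (all genes 29.6% and 29.0%). These comparisons share the P3 libraries. The members' median log2 fold changes against P3 were -0.13 at P11, -0.11 at P24 and -0.12 at P30. Upper-quartile scaling changed the splits to 14 lower and 12 higher at P11, 13 and 14 at P24 and 18 and 9 at P30. The excess of lower members at P11 and P24 thus depended on the scaling. By mean level, 27 of 47 members were highest at P3 and 22 lowest at P33. For 10 the lowest mean was at P30, for 8 at P11, for 5 at P3 and for 2 at P24. KPNA3, NUP155, NUP188, NUP93, TPR and XPO1 had a lower mean at each successive passage, and NUP42 a higher one, steps that were not each past the test. These counts by mean level were not made over all genes and describe the members only.

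Between neighbouring passages the members moved both ways. At P24 against P11, 9 were lower and 7 higher (all genes 17.7% and 16.0%). At P30 against P24, 9 were lower and 3 higher (all genes 17.1% and 18.0%), with KPNA2, NDC1, XPO1, TNPO3 and SEH1L among the lower. At P33 against P30, 19 were lower and 8 higher (all genes 24.8% and 23.6%), but with upper-quartile scaling 6 were lower and 11 higher, so neither direction prevailed independently of the scaling. The higher members of this step were NDC1, NUP35, NUP210, NUP42, XPOT, NUP58, NUP88 and KPNA2.

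Within them a group of 5 (KPNA2, NDC1, NUP35, NUP58 and NUP88) was lower at P30 than at P3 and higher again at P33 than at P30. Of all genes tested, 29.6% were lower at P30 than at P3 and 23.6% higher at P33 than at P30. The share of all genes with both calls was not counted, so the group is described without a comparison to other genes. KPNA2, an importin alpha adaptor whose mRNA is abundant in dividing cells, had 244, 236 and 245 CPM at P3, 147, 155 and 136 at P11, 147, 144 and 145 at P24, 95.5, 93.1 and 106 at P30, and 136, 128 and 124 at P33. The P30 libraries were the lowest of all and did not overlap with P33, and the P3 libraries stood far above the rest. KPNA2 was 2.47-fold lower at P30 than at P3 (log2 fold change -1.30, SE 0.0631, adjusted p = 5.17e-18), and its log2 difference between P33 and P30 was 0.40 (SE 0.0634, adjusted p = 3.65e-06). NDC1, a transmembrane protein needed to insert pores into the envelope, had 35.9, 35.8 and 35.9 CPM at P3, 28.8, 33 and 32.2 at P11, 32.6, 32.1 and 33.1 at P24, 21.3, 23.7 and 22.2 at P30, and 29.7, 29.6 and 33.6 at P33. Its P30 libraries lay below all other passage libraries. The log2 difference was -0.68 at P30 against P3 (SE 0.067, adjusted p = 2.09e-10) and 0.46 at P33 against P30 (SE 0.0683, adjusted p = 1.01e-06).

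NUP35, an inner ring protein that touches the membrane, was much less abundant in reads, with 7.84, 8.86 and 8.54 CPM at P3, 5.64, 7.19 and 6.01 at P11, 6.54, 6.47 and 8.1 at P24, 6.85, 6.68 and 6.74 at P30, and 8.47, 8.52 and 10.1 at P33. It was as low at P11 as at P30, and P33 libraries overlapped with P3. The P30 call of NUP35 (adjusted p = 0.0348) was lost with upper-quartile scaling, with DESeq2 and without P3 replicate 2 or 3 or any 1 of the P30 replicates. NUP58, a channel protein, averaged 61.3 ± 2.66 CPM at P3 and 45.7 ± 1.78, 50.2 ± 2.63, 45.9 ± 2.17 and 54.9 ± 2.19 CPM at P11, P24, P30 and P33 (SD, n = 3 each). NUP88, which holds NUP214 at the cytoplasmic face, had its lowest mean at P24, and its rise at P33 against P30 was lost without the count filter and without P30 replicate 1. Both were thus already low at P11. The marker sum of cycling cells (MKI67, TOP2A, CCNB1, CDK1 and PLK1) had 903 to 982 CPM at P3 and 500 to 593 at P11. It had 491 to 503 CPM at P24, 235 to 245 at P30 and 364 to 383 at P33. KPNA2 and NDC1 also had their lowest mean at P30, but NUP35 and NUP58 at P11 and NUP88 at P24. With DOX the sum was 35.3 to 38.4 CPM, against 280 to 308 with DMSO, while KPNA2, NDC1, NUP35, NUP58 and NUP88 were not called. The part of the marker sum in these results was not tested.

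**Figure D2:**
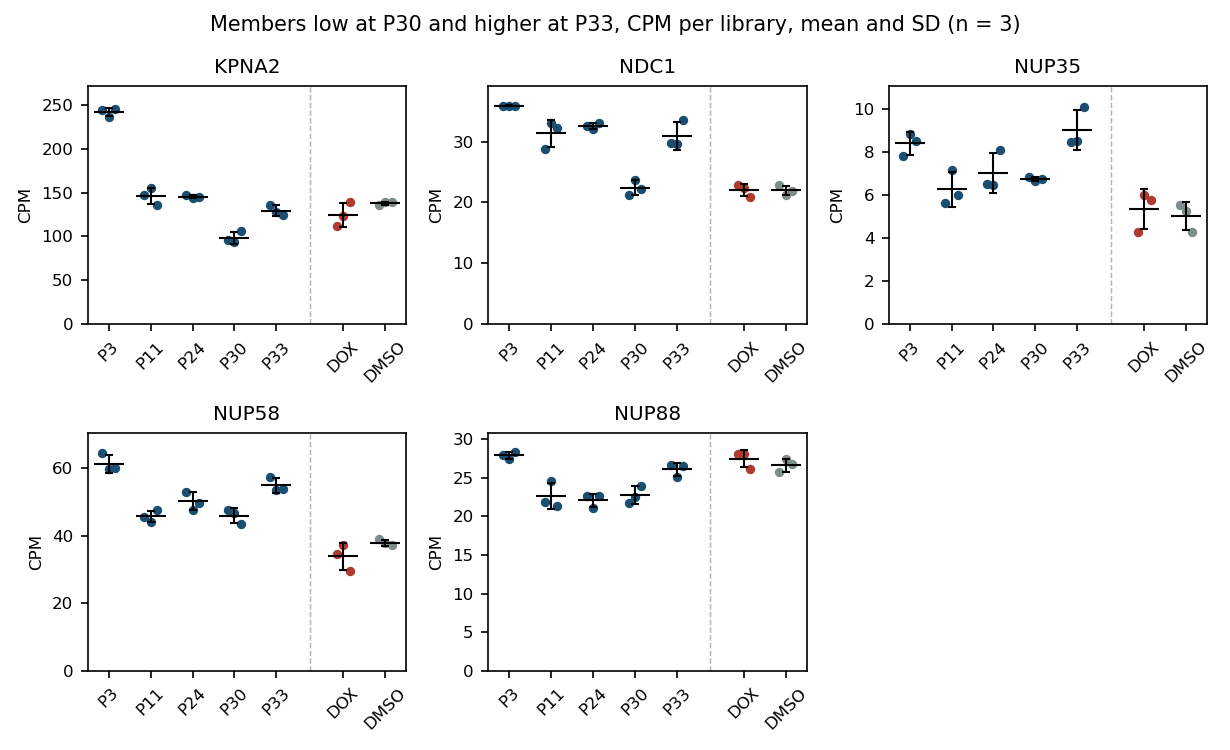
CPM (vertical axis, from 0) of the 5 members that were lower at P30 than at P3 and higher at P33 than at P30, in each passage group and, right of the dashed line, with DOX and DMSO; points are libraries, bars the mean and SD of 3. KPNA2 and NDC1 dip at P30, to 93.1 to 106 and 21.3 to 23.7 CPM, while NUP35, NUP58 and NUP88 are already low at P11.

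The promoter windows of the members were read for short motifs. RefSeq (GRCh38.p14) gave a window from 250 bases before to 50 after the gene start for 46 of the 52 members. The cell cycle genes homology region (CHR), TTTGAA, is bound by a repressor and activator complex that times genes of late cell cycle, often beside CCAAT boxes bound by NF-Y. On either strand TTTGAA occurred in 9 of 46 member windows (19.6%) and in 15.4% of 27305 promoters, and in 3 of the 5 members above, chosen for their calls at P30 and P33, whose windows follow. Of the 9 members with TTTGAA, 5 were lower at P30 than at P3, as were 45.8% of the members tested. Capitals mark TTTGAA or its reverse complement TTCAAA and, where present, CCAAT or ATTGG. The windows lie at chr17:68035485-68035784 on the plus strand, chr1:53838247-53838546 on the minus strand and chr2:183124193-183124492 on the plus strand.
KPNA2: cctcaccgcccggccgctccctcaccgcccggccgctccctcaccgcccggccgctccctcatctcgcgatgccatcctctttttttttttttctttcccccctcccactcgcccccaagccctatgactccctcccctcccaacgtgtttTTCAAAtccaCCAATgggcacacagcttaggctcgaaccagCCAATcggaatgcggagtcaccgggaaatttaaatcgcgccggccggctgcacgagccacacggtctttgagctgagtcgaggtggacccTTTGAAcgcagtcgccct
NDC1: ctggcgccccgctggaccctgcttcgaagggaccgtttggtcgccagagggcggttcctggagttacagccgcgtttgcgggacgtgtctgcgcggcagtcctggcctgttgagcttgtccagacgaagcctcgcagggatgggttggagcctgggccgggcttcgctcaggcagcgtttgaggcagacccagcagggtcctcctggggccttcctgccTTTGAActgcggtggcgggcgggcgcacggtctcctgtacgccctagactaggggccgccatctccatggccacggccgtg
NUP35: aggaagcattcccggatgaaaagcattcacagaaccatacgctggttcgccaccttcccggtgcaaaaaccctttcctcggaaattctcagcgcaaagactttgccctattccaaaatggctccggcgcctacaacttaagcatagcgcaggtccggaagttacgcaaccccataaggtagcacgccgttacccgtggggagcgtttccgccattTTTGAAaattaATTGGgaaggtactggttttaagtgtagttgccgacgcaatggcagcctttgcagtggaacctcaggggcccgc
A match is a description of these letters and not a bound site.

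The remaining strings were searched on both strands in the same windows. CCAAT occurred in 22 of 46 member windows (47.8%) and in 35.7% of all promoters, and the ETS core CCGGAAGT in 8 (17.4%) and in 4.4%. The E2F forms TTTGGCGC, TTTCCCGC, TTCGCGCC and GGCGGGAA, of which TTTCCCGC and GGCGGGAA can overlap on opposite strands, were found in 1, 0, 1 and 6 member windows, against 0.7%, 1.7%, 1.0% and 3.2% of all. The NRF1 string GCATGCGC was found in 4 member windows and 3.3% of all, the E-box CACGTG in 6 and 7.4%, and the C/EBP-ATF string TGATGNAA, with N any base, in 1 and 3.7%.

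In the outer ring, the Y complex, 5 of 7 members were lower at P33 than at P3 (NUP107, NUP160, NUP85, NUP37 and SEH1L), NUP43 was higher and NUP133 did not pass. NUP107, a stalk protein of the complex, had 19.6, 20.4 and 22.7 CPM at P33, against 26.9, 30.3 and 30.2 at P3. The groups did not overlap (log2 fold change -0.48, SE 0.0717, adjusted p = 5.43e-07), and the level was already down at P24, at 21.4, 22.4 and 21.6 CPM. NUP160, another protein of the complex, had 24.9, 24.4 and 24.2 CPM at P33, against 30.8, 33.6 and 29.2 at P3, a log2 fold change of -0.35 (SE 0.0661, adjusted p = 2e-05). NUP133, the far end of the stalk, had 32.2, 32.7 and 32.2 CPM at P33 and 31.0, 29.1 and 31.3 at P3, and was highest in between, at 37.2 to 38.5 CPM at P11. NUP43, in a short arm of the Y, likewise rose to 25.8, 29.4 and 27.6 CPM at P11. At P33 it had 22.7, 23.7 and 22.4 CPM, against 19.7, 19.9 and 21.1 at P3 (log2 fold change 0.18, adjusted p = 0.0171), but was lower at P33 than at P11 (-0.27, adjusted p = 0.00106). The P33 call of NUP43 was lost without P3 replicate 2 and without the count filter.

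With DOX, 2 Y complex members were lower and NUP43 higher. NUP85, also in a short arm, had 17.2, 17.8 and 15.9 CPM with DOX, against 20.9, 23.3 and 23.0 with DMSO. This log2 fold change of -0.40 (SE 0.0785, adjusted p = 0.000118) stood beside -0.31 at P33 against P3, a call lost with the 10 CPM filter. NUP160 had 31.3, 27.9 and 27.5 CPM with DOX, against 33.2, 33.9 and 33.3 with DMSO (-0.21, adjusted p = 0.0132). The groups did not overlap, but its DOX call was lost without DOX replicate 3 or DMSO replicate 2, with upper-quartile scaling and with passage and drug libraries fitted apart. NUP43 had 33, 32.7 and 29.6 CPM with DOX, against 24.4, 27.9 and 25.6 with DMSO (0.30, SE 0.0661, adjusted p = 0.000537).

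In the inner ring 4 of 5 members were lower at P33, and NUP35 had a log2 fold change of 0.10 that did not pass. NUP93, a scaffold protein that links the ring to the channel, had 31.6, 32.4 and 33.1 CPM at P33, against 47.0, 50.2 and 47.5 at P3. It was 1.49-fold lower (log2 fold change -0.58, SE 0.0635, adjusted p = 1.48e-09). NUP188, a large ring protein whose span overlaps another gene on the same strand over 15.7% of its length, had 35.8, 33.7 and 35.6 CPM at P33, against 47.4, 47.6 and 48.9 at P3 (-0.45, SE 0.0615). NUP155 and NUP205 had log2 fold changes of -0.42 and -0.27. With DOX, NUP93 had 29.2, 35.2 and 31.7 CPM, against 36.0, 37.9 and 36.2 with DMSO, a log2 fold change of -0.20 (adjusted p = 0.0179) whose call was lost without DOX replicate 1 or DMSO replicate 2, and in the same 2 other settings as that of NUP160. The other inner ring members were not called with DOX.

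In the channel, NUP98, which also serves the mRNA export machinery, had 101, 97.6 and 97.9 CPM at P33, against 119, 126 and 121 at P3 (log2 fold change -0.30, SE 0.0518, adjusted p = 4.86e-06). Most of that difference was present at P11, with 101, 105 and 103 CPM. NUP58 was lower by 0.16 at P33 (adjusted p = 0.0261), a call lost with upper-quartile scaling, DESeq2, the 10 CPM filter or overlapping genes left out and without P3 replicate 1 or either of P33 replicates 2 and 3. NUP54 and NUP62, partners of NUP58 in the channel, were lower with DOX. NUP54 had 28.2, 31.9 and 27.5 CPM with DOX, against 38.5, 36.7 and 36.7 with DMSO (-0.36, SE 0.0712, adjusted p = 0.000133). At P33 against P3 it had -0.13 (adjusted p = 0.112), called without P33 replicate 1. The difference between the DOX and the P33 effects did not pass (-0.23, adjusted p = 0.0599), but passed without P3 replicate 1, P33 replicate 3 or DOX replicate 2 and with upper-quartile scaling. NUP62 had 13.4, 13.9 and 13.7 CPM with DOX, against 16.9, 17.7 and 18.4 with DMSO, without overlap (-0.37, SE 0.101, adjusted p = 0.00593). DESeq2 did not call it, and reads of the genes that cover it cannot be told apart from its own.

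Of the membrane proteins, NDC1 and POM121 were lower at P33 than at P3 and NUP210 higher. POM121, an anchor of the pore in the envelope, had 41.7, 42.9 and 41.0 CPM at P33, against 51.4, 46.8 and 51.8 at P3 (log2 fold change -0.26, adjusted p = 0.00201). Its level was as low at P11, with 40.2, 41.7 and 38.6 CPM, and the difference between P33 and P11 was 0.06. In DOX-treated cells POM121 had 40.8, 38.0 and 41.7 CPM, against 33.4, 40.2 and 30.6 with DMSO, overlapping groups with a log2 fold change of 0.21 (adjusted p = 0.0238). That call was lost without DOX replicate 1, DOX replicate 3, DMSO replicate 1 or DMSO replicate 3, and reads of POM121 may be shared with POM121C, a near-identical copy. NUP210, a membrane glycoprotein used only in some cell types, was near the limit of detection, with 0.927, 1.32 and 1.4 CPM at P33, against 0.663, 0.27 and 0.245 at P3. It was highest at P24, with 1.76, 2.16 and 1.52 CPM. Its log2 fold change at P33 was 1.57 (SE 0.357, adjusted p = 0.000251), but 2.21 without P3 replicate 1, and 3 pseudogenes bear its name.

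At the cytoplasmic face NUP214 and RANBP2 were lower at P33 and NUP42 higher. NUP214, a docking site for export complexes, had 51.3, 48.4 and 50.2 CPM at P33, against 66.1, 62.9 and 62.3 at P3 (log2 fold change -0.35, SE 0.0606, adjusted p = 6.07e-06). It was still 61.6, 59.2 and 61.0 CPM at P30. NUP42, a filament protein that helps to release mRNA, had 29.3, 28.6 and 30.9 CPM at P33, against 22.7, 22.0 and 21.9 at P3 (0.41, SE 0.0653, adjusted p = 1.54e-06). With DOX its interval ran from -0.21 to 0.09. RANBP2, the large Ran-binding filament protein, had 315, 312 and 304 CPM at P33, against 386, 362 and 349 at P3 (-0.24, adjusted p = 0.000514). In DOX-treated cells RANBP2 had 516, 436 and 481 CPM, against 427, 447 and 384 with DMSO (0.19, adjusted p = 0.00947), and the groups overlapped. Its P33 call was lost with upper-quartile scaling and the 10 CPM filter, and its DOX call without DOX replicate 1 or DMSO replicate 3. The 7 RGPD genes of the table are near copies of RANBP2 and may share its reads.

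In the basket, TPR, the coiled-coil protein of its filaments, had 336, 332 and 341 CPM at P3, 281, 267 and 266 at P11, 258, 253 and 247 at P24, 235, 245 and 230 at P30, and 236, 216 and 223 at P33. It was 1.49-fold lower at P33 than at P3 (log2 fold change -0.58, SE 0.0558, adjusted p = 7.74e-11). In DOX-treated cells TPR had 513, 447 and 499 CPM, against 551, 566 and 496 with DMSO (-0.14, adjusted p = 0.0372). Those groups overlapped, and the call was lost with RLE or upper-quartile scaling, the 10 CPM filter or drug libraries fitted apart and without P3 replicate 1, DOX replicate 2, DMSO replicate 1 or DMSO replicate 2. NUP153, which joins basket and ring, fell in both comparisons by like amounts. It had 49.3, 48.3 and 47.9 CPM at P33, against 63.8, 57.1 and 61.7 at P3 (-0.33, SE 0.0545, adjusted p = 3.46e-06). It had 60.5, 57.6 and 56.5 CPM with DOX, against 70.2, 75.0 and 67.4 with DMSO (-0.28, SE 0.0543, adjusted p = 8e-05). The difference between the effects was 0.04 (interval -0.11 to 0.20). NUP50, a mobile cofactor of importin alpha, had 65.0, 62.7 and 64.3 CPM with DOX, against 81.0, 80.4 and 79.3 with DMSO (-0.33, SE 0.0487, adjusted p = 1.79e-06). At P33 it had 79.1, 80.5 and 79.6 CPM, against 81.3, 82.9 and 83.9 at P3 (-0.05, adjusted p = 0.343), and the DOX and P33 effects differed by -0.27 (adjusted p = 0.00106), or by -0.13 (adjusted p = 0.135) with P11 in place of P3.

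**Figure D3:**
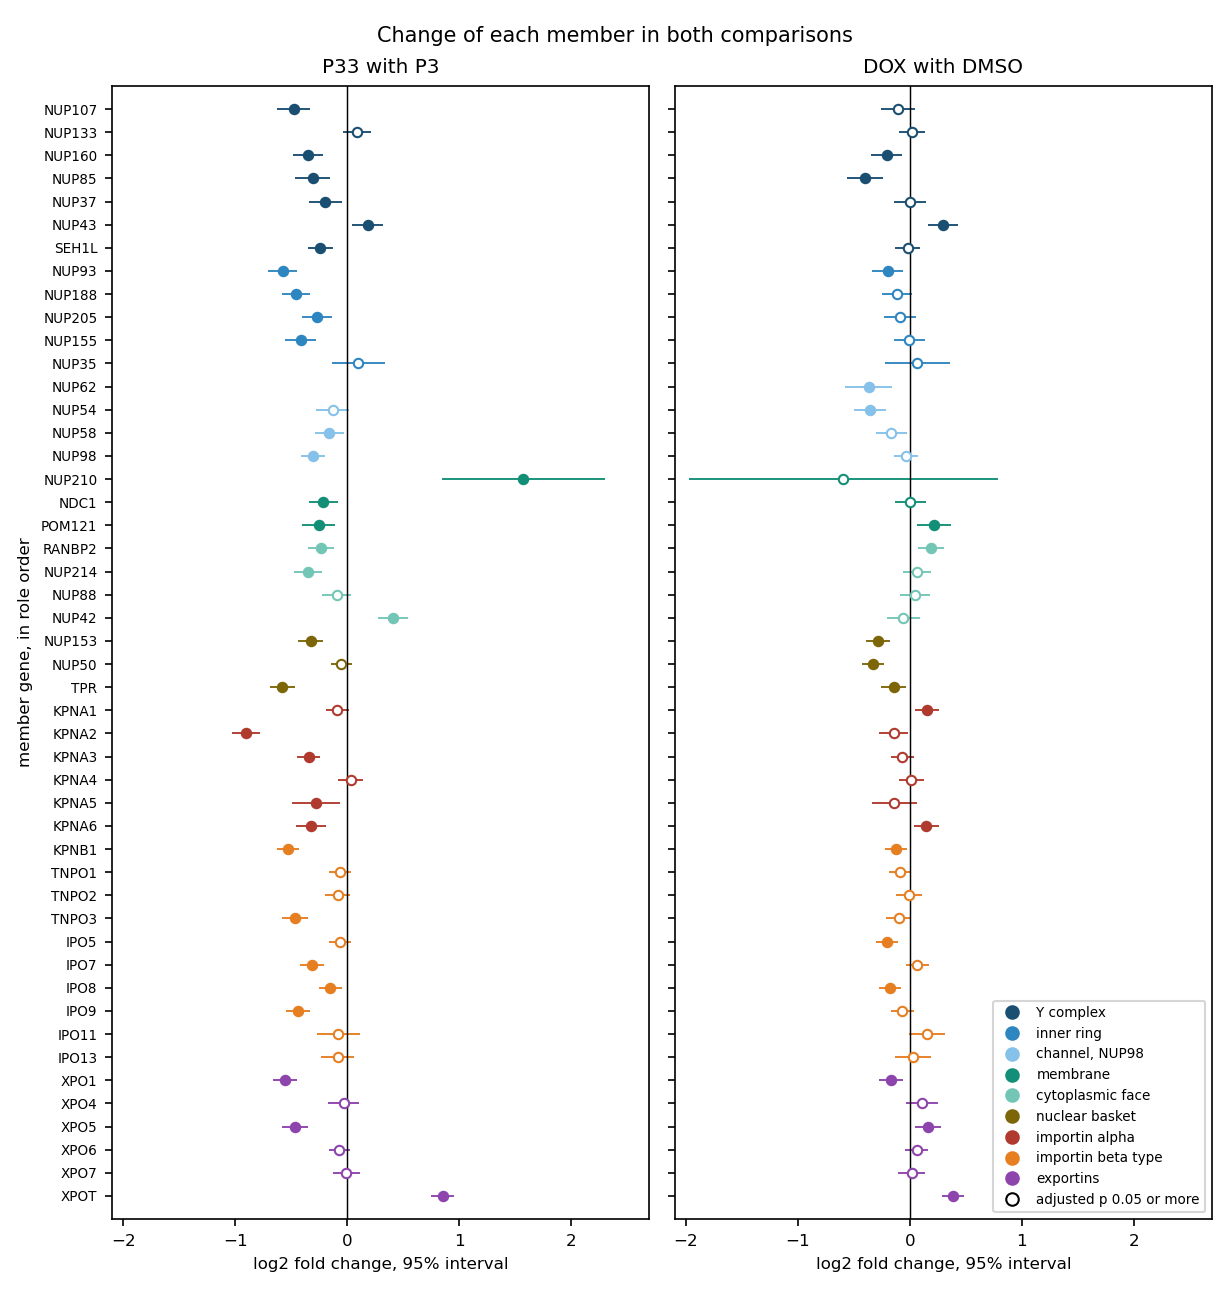
Log2 fold change and 95% interval of each tested member at P33 against P3 (left) and DOX against DMSO (right), in role order with colours by role; filled points passed the test, open points did not. Most left-hand points lie below 0 and KPNA2 at -0.90, while right-hand points lie close to 0, apart from the wide interval of NUP210.

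Among importin alpha adaptors KPNA2, KPNA3, KPNA5 and KPNA6 were lower at P33 than at P3, and KPNA1 and KPNA4 did not pass. KPNA2 (chromosome 17, 68035636 to 68047364, hg38) had the largest fall of all members, 1.87-fold (log2 fold change -0.90, SE 0.0614, adjusted p = 1.89e-14). Against P11 the difference at P33 was -0.18 (adjusted p = 0.0157). With DOX it had 112, 123 and 139 CPM, against 136, 139 and 139 with DMSO, which did not pass (-0.15, adjusted p = 0.0665, interval -0.27 to -0.02) but did without DOX replicate 3. The DOX effect minus the P33 effect was 0.76 (adjusted p = 9.23e-09), but with P11 in place of P3 it was 0.03 (adjusted p = 0.853). The cycling marker sum was 35.3 to 38.4 CPM with DOX and 280 to 308 with DMSO. Its part in the KPNA2 values was not tested, and 3 pseudogenes bear the name of KPNA2. KPNA3 had 87.4, 91.9 and 85.2 CPM at P33, against 114, 110 and 112 at P3 (-0.35, SE 0.0492), most of it present at P11 with 90.2, 93.6 and 94.6 CPM.

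KPNA6 and KPNA1 were higher with DOX. KPNA6 had 90.8, 84.1 and 83.1 CPM with DOX, against 79.0, 79.1 and 74.8 with DMSO (log2 fold change 0.15, adjusted p = 0.0373), and 23.3, 22.3 and 21.1 CPM at P33, against 28.7, 28.9 and 25.5 at P3 (-0.32, SE 0.0655, adjusted p = 6.14e-05). Both pairs of groups were apart, and KPNA6 overlaps a gene of its strand over 8.51% of its span. Its mean was 25.6 CPM in untreated P11 cells and 77.6 with DMSO. Whether the difference in counting enters this gap, or its opposite directions at P33 and with DOX, was not tested. KPNA1 had 84.9, 82.4 and 79.7 CPM with DOX, against 76.6, 74.6 and 70.8 with DMSO (0.15, adjusted p = 0.0173). Both DOX calls were lost without the count filter and without DOX replicate 1 or DMSO replicate 3, that of KPNA6 also without DMSO replicate 1. KPNA4 had intervals of -0.08 to 0.14 at P33 and -0.10 to 0.13 with DOX.

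Of the 10 beta type import receptors tested, 5 were lower at P33 and 5 did not pass. KPNB1, the main import receptor, had 576, 558 and 563 CPM at P3, 475, 482 and 451 at P11, 472, 472 and 467 at P24, 448, 440 and 445 at P30, and 376, 398 and 403 at P33. It was 1.44-fold lower at P33 than at P3 (log2 fold change -0.53, SE 0.0487, adjusted p = 2.82e-11). With DOX it had 413, 382 and 374 CPM, against 431, 410 and 432 with DMSO (-0.12, adjusted p = 0.0456), a call lost under most alternatives. TNPO3, which imports splicing factors of the SR family, had 57.1, 59.8 and 61.2 CPM at P33, against 77.2, 86.5 and 82.4 at P3 (-0.47, SE 0.0553, adjusted p = 6.42e-09). IPO9 and IPO7 had log2 fold changes of -0.44 and -0.32. TNPO1, TNPO2, IPO5, IPO11 and IPO13 had values between -0.09 and -0.06, with interval bounds from -0.27 to 0.11.

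IPO5 and IPO8 were lower with DOX. IPO5, an importer of ribosomal proteins among other cargo, had 326, 338 and 340 CPM with DOX, against 388, 387 and 379 with DMSO (log2 fold change -0.20, SE 0.0482, adjusted p = 0.00117). IPO8 had 120, 107 and 115 CPM with DOX, against 130, 129 and 128 with DMSO (-0.18, adjusted p = 0.00458), and 82.9, 80.8 and 81.0 CPM at P33, against 91.8, 90.5 and 89.3 at P3 (-0.15, adjusted p = 0.00875). Groups did not overlap in either gene. The DOX call of IPO8 was lost with drug libraries fitted apart, and its P33 call with upper-quartile scaling, the 10 CPM filter or overlapping genes left out and without P3 replicate 1 or P33 replicate 2.

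Among exportins XPO1 and XPO5 were lower at P33 and XPOT higher, while XPO4, XPO6 and XPO7 did not pass. With single libraries left out, the P33 log2 fold changes of these last genes lay between -0.11 and 0.04. XPO4 was higher at P30 than at P3, with means of 36 and 32.2 CPM, a call lost with a replicate block. XPO1, the exporter of proteins with leucine-rich signals, had 285, 284 and 284 CPM at P3, 252, 262 and 238 at P11, 250, 241 and 254 at P24, 219, 219 and 214 at P30, and 200, 184 and 196 at P33 (P33 against P3 -0.56, SE 0.054, adjusted p = 9.4e-11). With DOX it had 256, 255 and 235 CPM, against 287, 295 and 256 with DMSO (-0.17, adjusted p = 0.0131), where the groups met. This call was lost with upper-quartile scaling, with drug libraries fitted apart and without DOX replicate 3, DMSO replicate 1 or DMSO replicate 2. XPO5, which exports microRNA precursors, had 27.3, 27.4 and 25.9 CPM at P33, against 37.2, 37.3 and 36.7 at P3 (-0.46, SE 0.0567, adjusted p = 1.23e-08). With DOX it was higher, at 36.6, 33.9 and 37.0 CPM, against 32.6, 33.2 and 30.4 with DMSO (0.16, adjusted p = 0.0266). The DOX call was lost without the count filter, with drug libraries fitted apart and without DOX replicate 1 or 3 or DMSO replicate 1 or 3. The DOX effect minus the P33 effect on XPO5 was 0.62 (SE 0.0806, adjusted p = 8.42e-08), or 0.41 (adjusted p = 0.000125) with P11 in place of P3.

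XPOT (chromosome 12, 64404392 to 64451125, hg38), the exporter of transfer RNA, went the other way. It had 177, 184 and 183 CPM at P3, 223, 211 and 222 at P11, 219, 216 and 208 at P24, 253, 260 and 256 at P30, and 321, 314 and 349 at P33. Every later library lay above every P3 library, and P33 was 1.8-fold above P3 (log2 fold change 0.85, SE 0.0494, adjusted p = 3.92e-16). With DOX it had 614, 637 and 597 CPM, against 481, 465 and 466 with DMSO, 1.31-fold higher (0.39, SE 0.0485, adjusted p = 6.66e-08). XPOT was higher in both comparisons, by less with DOX (difference of effects -0.46, adjusted p = 1.07e-06, or -0.20, adjusted p = 0.0239, with P11 in place of P3), and 1 pseudogene bears its name.

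**Figure D4:**
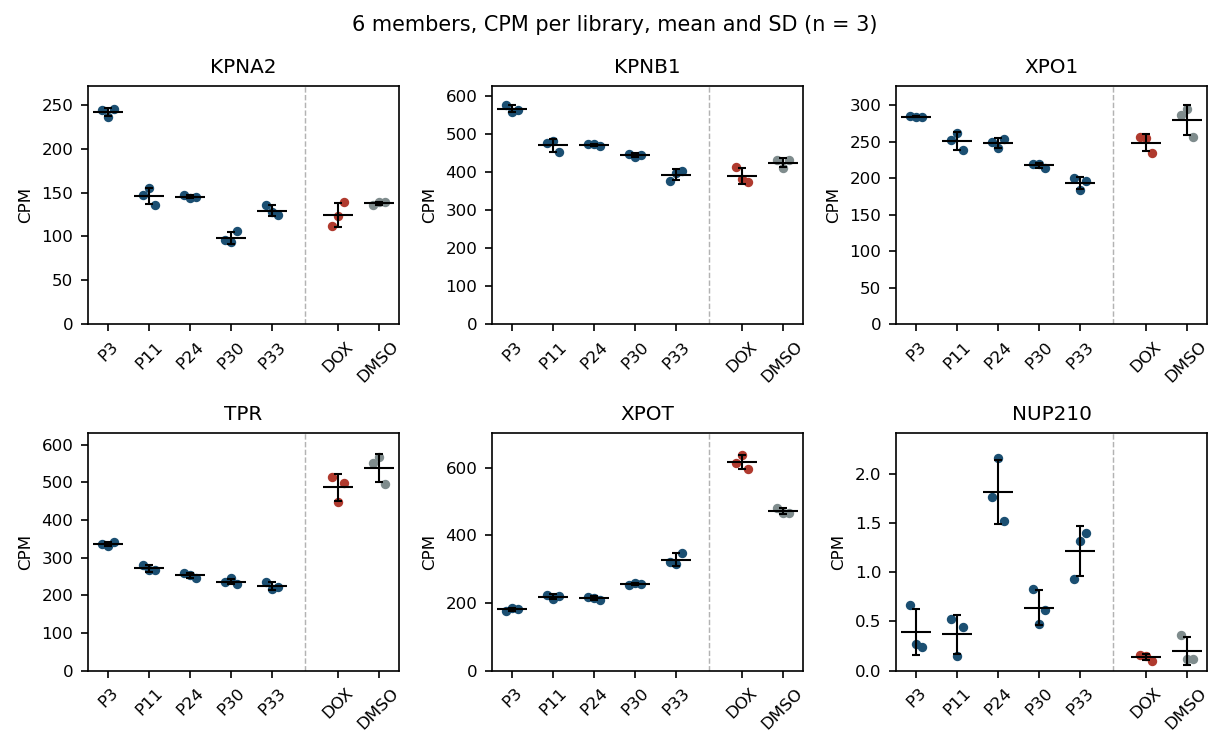
CPM (vertical axis, from 0) of 6 members in each passage group and, right of the dashed line, with DOX and DMSO; points are libraries, bars the mean and SD of 3. KPNA2, KPNB1, XPO1 and TPR lie lower at P33 than at P3, XPOT rises to 314 to 349 CPM at P33, and NUP210 stays under 2.2 CPM.

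With DOX against DMSO the members as a whole moved little. Of 48 tested, 12 were lower and 7 higher, or 25.0% and 14.6%, while of all genes 20.6% were lower and 16.7% higher, and the median log2 fold change was -0.04. These shares lie near those of all genes. Of the 47 members with passage reads, all DOX libraries lay below all DMSO libraries in 10 (21.3%, against 23.3% of all genes). They lay above in 6 (all genes 19.5%). NUP62, left out of these counts, also had all DOX libraries below all DMSO libraries. Of the called members 0 differed by 1.5-fold, and 5 lower and 2 higher ones differed by at least 1.2-fold. NUP210, near the limit of detection, had a log2 fold change of -0.59 that did not pass. NUP210 apart, the 28 members not called had intervals between -0.34 and 0.36. The counts leaned on single libraries: without DMSO replicate 2 there were 7 lower, and without DOX replicate 1 or DMSO replicate 3 there were 2 higher. With upper-quartile scaling 7 were lower and 7 higher. MKI67 was lower with DOX by a log2 fold change of -4.10, against -1.73 at P33.

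The calls of the passage and DOX comparisons, which share no library, overlapped in part. Lower in both were NUP160, NUP85, NUP93, NUP153, TPR, KPNB1, IPO8 and XPO1, 8 genes that make 28.6% of the members lower at P33 and 66.7% of those lower with DOX, a share near the 58.3% of all members tested that were lower at P33. Higher in both were NUP43 and XPOT, 50% of the members higher at P33 and 28.6% of those higher with DOX. Of all members tested 14.6% were higher with DOX and 8.33% at P33. POM121, RANBP2, KPNA6 and XPO5 were lower at P33 and higher with DOX, and 0 members went the other way. These are 4 of the 7 members higher with DOX, a share near the 58.3% of all members lower at P33. Only 4 members were higher at P33, so few could go the other way. In the test of the difference, the DOX effect minus the P33 effect, 20 members were higher and 4 lower (all genes 25.8% and 25.4%). The median was 0.19 for the members with passage reads, against -0.02 for all genes, which include some without passage reads. Of the 20, 19 were among the members lower at P33. The same P33 and P3 libraries enter both tests, so these calls largely restate the P33 falls. The 4 lower ones were NUP210, NUP42, XPOT and NUP50.

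Genes that work with the pore but whose names the rule does not take were described from a separate list of 21 genes. At P33 against P3, 13 were lower and 2 higher, or 61.9% and 9.52%, against 33.3% and 34.5% of all genes. With DOX 3 were lower and 2 higher, or 14.3% and 9.52%, against 20.6% and 16.7% of all genes. RANBP1, which helps to release Ran from exportins, averaged 76.9 ± 6.89 CPM at P33 and 162 ± 11.7 CPM at P3 (SD, n = 3 each), 2.11-fold lower (log2 fold change -1.08, SE 0.0693, adjusted p = 4.59e-15). It was also lower with DOX (-0.29, adjusted p = 0.00239). SEC13, a Y complex protein shared with COPII vesicle coats, averaged 136 ± 10.3 CPM at P33 and 240 ± 2.15 CPM at P3 (-0.82, SE 0.0658), and with DOX it had -0.01. RAN itself averaged 255 ± 7.66 CPM at P33 and 418 ± 7.21 CPM at P3 (-0.71, SE 0.0522), and with DOX it had 0.02 (adjusted p = 0.83). The RNA helicase DDX19A and the mRNA export factor NXT2 had log2 fold changes of -1.02 and -0.81 at P33, and NXT1, a relative of NXT2, one of 0.92. With P11 in place of P3 these were 0.25 (adjusted p = 0.0537), -0.92 and 0.37. DDX19A averaged 14.8 CPM at P3, 6.15 at P11 and 7.33 at P33, so its fall lay before P11. DDX19B, also on this list, had 0 counts at P3, 1 at P33 and 668 with DMSO. The difference in counting may touch it. RANGAP1, which makes Ran hydrolyse GTP, was lower at P33 than at P3 (-0.47) and higher with DOX (0.38, SE 0.0667, adjusted p = 1.99e-05). Its fall lay between P3 and P11, with means of 278 and 176 CPM, against 201 at P33. With P11, the passage given DOX, in place of P3 it was higher at P33 (0.19, adjusted p = 0.0131), the same direction as with DOX.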

How the data were processed

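RNA was measured in 21 libraries, 7 groups of 3. The deposited table gives the authors' raw counts for each gene, as whole numbers without scaling. The submitters' processing notes name HISAT2 2.1.0, featureCounts 2.0.1 (Subread), SAMtools 1.11, FastQC 0.11.9, cutadapt 3.3 and DESeq2 1.34.0, and the builds hg38 and GRCh38.p13. Options such as the strand setting are not given there. The molecule label reads genomic DNA, whereas the protocol describes poly(A) RNA.

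From these counts, genes were kept with filterByExpr (minimum count 10), which left 16821 and took out 44723. Libraries were scaled by TMM (factors 0.899 to 1.13), and 1 quasi-likelihood model of group means was fitted with edgeR 4.0.16 in R 4.3.3 (14 residual degrees of freedom, biological coefficient of variation 5.48%), two-sided, for 9 comparisons. The fit was tested on simulated data. No 2 libraries of a group held identical values. Same-numbered replicates did not deviate together (correlations -0.0772 to 0.0415), so the numbers do not pair libraries. Intervals are 95%. Members overlapping another gene on the same strand (23) and those with pseudogenes named after them (13) are uncertain. All members are named. Per library values are given for the 2 members per role with the largest called change at P33 against P3 and with DOX. Other members are given by mean, fold change, range or call only. Details of NDC1, NUP35, NUP58, NUP88, NUP133, XPO5, RAN and RANGAP1 were added after values were seen. The members, lists and motifs were chosen with earlier results of these data known, and the NRF1 string was shortened after a longer form had been counted. Alternatives were RLE and upper-quartile scaling, no count filter, a 10 CPM filter, a replicate block, DESeq2 1.42.0, passage and drug libraries fitted apart, removal of ribosomal and mitochondrial or of overlapping genes, another baseline and leaving out each library.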

Additional observations from a re-analysis of the deposited data

How the results depend on the processing

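At P33 against P3, 24 to 29 members were lower and 3 to 4 higher across single libraries left out. Most other counts stayed within 1.5 times. With upper-quartile scaling, members higher numbered 14 at P24 and 9 at P30 against P3 and 1 at P30 against P24, and members lower 6 at P33 against P30 and 7 with DOX. Without a count filter 4 were higher at P11 against P3, 1 at P30 against P24 and 4 with DOX. With the 10 CPM filter, which tests 8950 genes, 13 were higher at P24, 9 at P30, and 18 lower at P33, all against P3, 6 lower at P33 against P30 and 7 lower for the DOX effect minus the P33 effect. With passage and drug libraries fitted apart 11 were higher at P24 against P11 and 6 lower with DOX. Leaving out genes that overlap on the same strand removes 23 members and so fewer were lower against P3, with 9 at P11, 9 at P24, 10 at P30 and 12 at P33; 4 were higher and 4 lower at P24 against P11, 1 higher at P30 against P24, 10 lower at P33 against P30, 4 higher with DOX and 9 higher for the difference. With P11 as baseline in place of P3, chosen after seeing the data, 8 were higher at P33 and 28 lower; log2 fold changes turned to -0.2674 for NUP43, -0.2234 for NUP133, 0.2653 for NUP58, 0.2023 for NUP88, 0.05748 for POM121, 0.1653 for TNPO1, 0.1817 for TNPO2, 0.2524 for DDX19A and 0.1885 for RANGAP1 at P33. At P30 they turned to 0.1682 for IPO7, -0.005312 for NUP133, 0.1009 for NUP35, -0.4163 for NUP37, 0.01076 for NUP58, 0.05457 for NUP98, 0.1101 for POM121, 0.245 for TNPO2, -0.04439 for XPO4 and 0.0223 for XPO5. With the 10 CPM filter XPO7 turned to 0.1361 at P33 against P3. Other than where the construction shows it, the cause was not tested. With single libraries left out, members higher ranged from 3 to 9 at P24 against P11 (3 without P11 replicate 3 or P24 replicate 3), 1 to 5 at P30 against P24 (1 without P30 replicate 3, 5 without DMSO replicate 3) and 2 to 7 with DOX (4 without DMSO replicate 1). Members lower ranged from 12 to 19 at P33 against P30 (12 without P33 replicate 2) and 7 to 12 with DOX. A replicate block, though the numbers do not pair the libraries, gave 28 lower and 4 higher at P33 against P3 and 11 and 7 with DOX, where the call of KPNB1 was lost (-0.12, adjusted p = 0.053). DESeq2 gave 25 lower and 4 higher at P33 against P3, and 11 and 7 with DOX. Of 165 single-gene results, 90 kept their call in every setting. The smallest change called with DOX was the 1.09-fold one of KPNB1, and NUP210, with the fewest reads among tested members, has the widest intervals.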
